A study of Rattus norvegicus with 28 samples.

Results

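Levels of 5 genes of collagen fibres and the surrounding matrix, Col1a1, Col1a2, Col3a1, Dcn and Fn1, and of the growth factor gene Igf2 were followed in RNA-seq gene counts from rat orbitofrontal cortex. The genes were chosen by Ensembl identifier as genes expressed in the meninges and around vessels, and all 6 were among the 26405 genes of the count tables and among the 15413 genes that passed the filter on low counts. The 6 genes were chosen with earlier results of these data known, so comparisons of them with all genes are descriptive. In the order above their identifiers are ENSRNOG00000003897, ENSRNOG00000011292, ENSRNOG00000003357, ENSRNOG00000004554, ENSRNOG00000014288 and ENSRNOG00000020369. The rats were Sprague Dawley, of an age the labels leave out. Through an intravenous catheter they took meth (methamphetamine, a psychostimulant) or saline by their own responses, and tissue was punched at withdrawal day 2 or day 35. The 4 groups were day 35 meth, day 35 saline, day 2 meth and day 2 saline, with 4 libraries each, and every library held poly(A) RNA of punches pooled from 2 rats. The 12 central amygdala samples were not analysed here. A punch of whole tissue mixes all of its cells, so fewer cells of a type and less RNA per cell cannot be told apart in any value below.

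Col1a1 and Col1a2 encode the chains of type I collagen and Col3a1 encodes that of type III collagen, the fibre-forming collagens of connective tissue. In brain these are made mainly by fibroblasts of the meninges and of the sheaths of larger vessels, while neurons and most glia make little of them. Dcn encodes decorin, a small proteoglycan that binds collagen fibrils. Fn1 encodes fibronectin, an adhesive matrix glycoprotein also made by vessel cells. Igf2 encodes insulin-like growth factor 2, a secreted growth factor that in the adult rodent brain comes mainly from the meninges and choroid plexus. The count tables hold identifiers without names, so the 6 names are those given with the identifiers, and other markers of meninges, vessels, choroid plexus, neurons or glia could not be looked up. The label meningeal was therefore not checked against other markers, and the part of any such tissue in the punches was not tested.

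The RefSeq promoter table (build GRCr8, not the build of the counts) held Col1a2 and Igf2 by symbol. Stretches before their starts are shown because these were the only 2 members in that table. Capitals mark matches to the CCAAT box, the TATAAA box or the GC box GGGCGG, searched on both strands. No match overlapped another. The Col1a2 stretch is chr4:33518307-33518416 on the plus strand and runs from 250 to 141 bases before the start. The Igf2 stretch is chr1:207250575-207250725 on the minus strand and runs from 250 to 100 bases before 1 of 2 listed starts.
Col1a2: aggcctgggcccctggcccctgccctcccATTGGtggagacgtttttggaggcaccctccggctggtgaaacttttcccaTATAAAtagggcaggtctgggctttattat
Igf2: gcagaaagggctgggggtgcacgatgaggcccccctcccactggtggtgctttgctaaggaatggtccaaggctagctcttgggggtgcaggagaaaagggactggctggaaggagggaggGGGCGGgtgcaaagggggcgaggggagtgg
The Col1a2 window held CCAAT on the reverse strand (ATTGG as printed), 221 bases before the start, and TATAAA 170 bases before it. The Igf2 window held GGGCGG 129 bases before its start, and the window of 250 bases before the other Igf2 start held none of the 3 motifs. Col1a2 and Igf2 shared no motif, and a link between motifs and levels was not tested. Of all 33469 windows of 250 bases in the table, 34% held the CCAAT box, 12.9% the TATAAA box and 30.5% the GC box.

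The reads assigned to genes in a library numbered 36.72 to 43.98 M (mega) in day 35 meth, 31.85 to 48.47 M in day 35 saline, 24.97 to 37.48 M in day 2 meth and 20.33 to 23.54 M in day 2 saline. The day 2 saline libraries were the shallowest. Fn1 had 902 to 3256 reads per library and the other 5 genes had 101 to 731, so counting error alone was 1.75 to 9.95% of a value. Levels are given as CPM, the count per M reads on genes with TMM-normalized library sizes. They are not divided by gene length and are compared only within a gene. Each group carried 1 sequencing index, so index and group cannot be told apart.

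The same few libraries held the highest levels of several genes. This order over all 16 libraries also carries the differences between groups. In 5 of the 6 genes, all but Fn1, the 3 highest of the 16 libraries were day 2 meth replicates 2 and 4 and day 35 saline replicate 9. Day 2 meth replicate 4 held the highest level of Col1a1, Col1a2, Col3a1 and Igf2 (12.1, 16.2, 14.1 and 18.0 CPM). Across all libraries the highest level was 4.01 times the lowest for Col3a1, 3.87 times for Col1a1 and 2.51 times for Dcn, against 2.03 times for Fn1. Within its group, day 2 meth replicate 2 was not high for every gene. Its log2 deviation from the group mean was -0.05 for Col1a2 and -0.006 for Igf2. What set these libraries apart was not tested.

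The collagens and decorin stood lowest at day 35 in meth rats and highest at day 2 in meth rats. Between these groups Col1a1, Col3a1 and Dcn fell, by 2.32-, 2.5- and 1.89-fold, and no member rose. The comparison of day 35 with day 2 within meth rats sets different rats against each other, punched at different withdrawal times. Meth craving is known to grow over that period, and a link of these levels to craving was not tested. Withdrawal time, sequencing index and any difference in age cannot be told apart in this comparison. All 6 members had a negative log2 fold change, with a median of -0.94 against 0.00 over all genes tested. Of all genes tested, 1.38% were called lower and 1.83% in either direction at an edgeR adjusted p under 0.05.

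Col1a1 stood at 3.53, 4.17, 3.90 and 3.12 CPM in day 35 meth libraries, against 6.29, 9.73, 5.90 and 12.1 CPM in day 2 meth libraries. Every day 35 library lay below every day 2 library, and the day 2 libraries were spread far more widely. The log2 fold change was -1.21 (SE 0.256, edgeR quasi-likelihood adjusted p = 0.0286).

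Col3a1 stood at 4.67, 4.76, 3.51 and 3.72 CPM in day 35 meth libraries, against 7.12, 11.9, 8.27 and 14.1 CPM in day 2 meth libraries. These groups did not overlap either, and the day 2 libraries high for Col1a1, replicates 2 and 4, were the high ones again. The log2 fold change was -1.32 (SE 0.258, edgeR adjusted p = 0.0205).

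Dcn stood at 4.10, 5.29, 4.72 and 4.74 CPM in day 35 meth libraries, against 6.49, 10.3, 8.40 and 10.2 CPM in day 2 meth libraries. The groups did not overlap, and day 2 replicate 1 was the lowest of its group. The log2 fold change was -0.92 (SE 0.189, edgeR adjusted p = 0.0224).

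Col1a2, the partner chain of Col1a1 in type I collagen, stood at 5.45, 5.57, 5.06 and 4.77 CPM in day 35 meth libraries, against 7.08, 9.22, 7.85 and 16.2 CPM in day 2 meth libraries. Its libraries did not overlap, but it did not pass the threshold (log2 fold change -0.96, SE 0.252, edgeR adjusted p = 0.0717). Igf2 stood at 5.57, 6.62, 6.42 and 6.12 CPM in day 35 meth libraries, against 8.51, 10.6, 7.96 and 18.0 CPM in day 2 meth libraries. It did not overlap between the groups and did not pass either (log2 fold change -0.88, SE 0.311, edgeR adjusted p = 0.18). Without day 2 meth replicate 4 the log2 fold changes were -0.63 for Col1a2 and -0.55 for Igf2.

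Fn1 was the member that differed least. It stood at 60.7, 75.6, 47.5 and 54.3 CPM in day 35 meth libraries, against 61.3, 69.8, 89.7 and 68.8 CPM in day 2 meth libraries. The groups overlapped, and the log2 fold change was -0.29 (SE 0.150, edgeR adjusted p = 0.377), or -0.165 without day 2 meth replicate 3 and -0.19 without day 35 meth replicate 7. In all, 5 of the 6 members had no overlap between the meth groups, all lower at day 35, where 6.44% of all genes tested lay apart in that direction. These 5 varied together across libraries (Pearson's r of log2 CPM 0.728 to 0.956 over their pairs). Counts of members, here and in the other comparisons, are therefore not counts of separate observations.

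**Figure D1:**
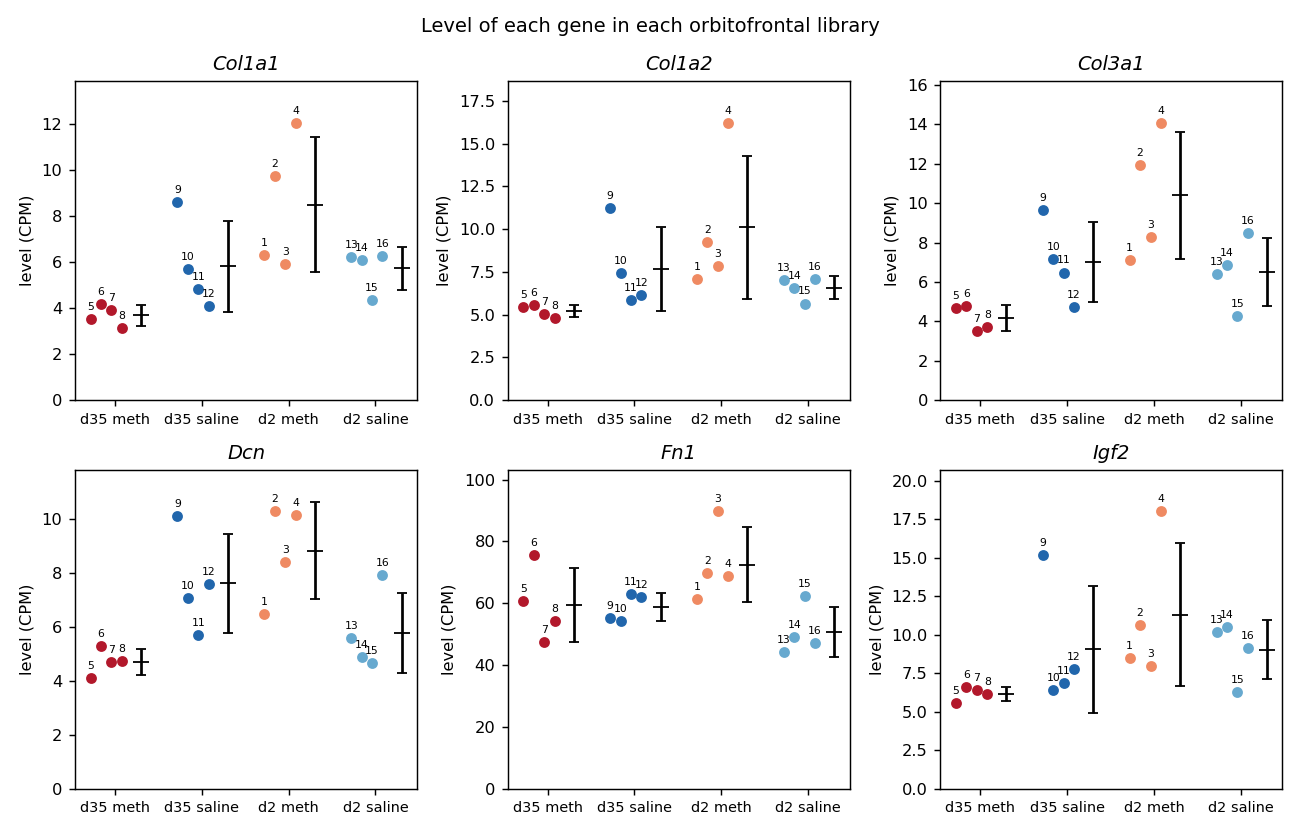
Level in CPM (vertical axes, linear from 0) of each gene in each library, by group (horizontal axes; d35 and d2 are withdrawal days 35 and 2). Points are libraries with their replicate numbers, and bars are the group mean ± SD (n = 4). For Col1a1 the 4 day 35 meth libraries sit between 3.12 and 4.17 CPM, all below the 4 day 2 meth libraries at 5.90 to 12.1 CPM, while the Fn1 groups overlap.

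The falls of the 3 called members were larger than most among the genes called lower. Among the 213 genes called lower, which had a median log2 fold change of -0.32, Col3a1 ranked 10, Col1a1 12 and Dcn 20 by the size of the fall. Their SDs of log2 CPM around the group means were 0.39, 0.37 and 0.30, against a median of 0.10 over all genes tested. A gene of such wide spread passes only with a large fold change, so these ranks partly follow from the spread. The 3 genes were also close to the threshold. Without day 2 meth replicate 2 or 4 or day 35 meth replicate 5, 7 or 8, none of the 3 passed (edgeR adjusted p 0.0513 to 0.0873), and without day 35 meth replicate 6 Col1a1 did not (adjusted p = 0.0652). Log2 fold changes with any 1 library left out stayed between -1.36 and -0.99 for Col1a1, -1.45 and -1.13 for Col3a1, and -1.02 and -0.83 for Dcn. DESeq2 called 4 members lower, the same 3 and Col1a2 (DESeq2 adjusted p = 0.0021), where it called 2.47% of the genes it gave an adjusted p lower.

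Without both day 2 meth replicate 4 and day 35 saline replicate 9, a fit chosen after the levels were seen, 4 members and 0.615% of all genes were called lower in meth rats at day 35 than at day 2. They were Col1a1 (log2 fold change -0.99, edgeR adjusted p = 0.0176), Col1a2 (-0.63, 0.00843), Col3a1 (-1.14, 0.0378) and Dcn (-0.84, 0.0389). Without replicate 4 alone edgeR called 0 members in this comparison. The log2 fold change of Col1a2 was -0.63 in both fits, with an SE of 0.182 without replicate 4 and 0.107 without both. Both libraries were among the highest for these genes, so leaving them out narrows the spread used by the test. These calls are therefore not further evidence. Without both, edgeR called 0 members between meth and saline on either day and for the difference of the meth effects, where Dcn stood at -1.08 (SE 0.254).

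In saline rats no member was called between day 35 and day 2. edgeR called 0 of the 6 and 0% of all genes, and 0 of the 6 had an unadjusted edgeR p under 0.05, where 8.68% of all genes did. DESeq2 called 38 genes, none of them a member, and gave an adjusted p for Fn1 only. All 6 overlapped between the saline groups, where 3.86% of all genes lay apart. Col1a1 stood at 8.62, 5.72, 4.84 and 4.07 CPM in day 35 saline libraries, against 6.23, 6.11, 4.33 and 6.27 CPM in day 2 saline libraries. The groups overlapped, with day 35 replicate 9 the highest of all 8 (log2 fold change 0.04, SE 0.265). Col3a1 stood at 9.63, 7.18, 6.48 and 4.72 CPM in day 35 saline libraries, against 6.43, 6.87, 4.29 and 8.48 CPM in day 2 saline libraries, with replicate 9 again highest (log2 fold change 0.12, SE 0.267). Dcn averaged 7.62 ± 1.85 CPM in day 35 saline and 5.77 ± 1.49 CPM in day 2 saline libraries (SD, n = 4 each; log2 fold change 0.42, SE 0.198, edgeR adjusted p = 0.584). The log2 fold changes of Col1a2, Fn1 and Igf2 were 0.24 (SE 0.265), 0.21 (SE 0.157) and 0.03 (SE 0.320). Without day 35 saline replicate 9 the log2 fold changes of Col1a1, Col1a2, Col3a1 and Igf2 turned negative, at -0.23, -0.02, -0.09 and -0.36, and that of Dcn was 0.24. Without day 2 saline replicate 15 those of Col1a1, Col3a1 and Igf2 turned negative, at -0.08, -0.04 and -0.11.

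At day 2, meth rats had higher mean levels of all 6 genes than saline rats, but no member passed the test of meth against saline. edgeR called 0 of 6 members and 0.11% of all genes, and DESeq2, which gave an adjusted p for Fn1 only, called 0 members. Of the 6 members 5 had an unadjusted edgeR p under 0.05, where 10.5% of all genes did, and the median log2 fold change of the members was 0.60 against 0.00 over all genes. Dcn averaged 8.84 ± 1.79 CPM in meth and 5.77 ± 1.49 CPM in saline libraries (SD, n = 4 each; log2 fold change 0.63, SE 0.198, edgeR adjusted p = 0.259). Fn1 averaged 72.4 ± 12.1 CPM in meth and 50.7 ± 8.05 CPM in saline libraries, its largest difference in any comparison between groups (log2 fold change 0.52, SE 0.156, edgeR adjusted p = 0.248). In Dcn and Fn1 the groups overlapped through 1 high saline library, replicate 16 for Dcn and replicate 15 for Fn1. The collagens had log2 fold changes of 0.58 to 0.68. Col1a2 was the only member whose libraries did not overlap, with its lowest meth and its highest saline library both at 7.08 CPM as rounded, where 5.45% of all genes lay apart in either direction. Igf2 averaged 11.3 ± 4.63 CPM in meth and 9.03 ± 1.93 CPM in saline libraries. The log2 fold change of Igf2 was 0.33 with an SE of 0.318 and an edgeR adjusted p of 0.772. Without meth replicate 4 the log2 fold changes were 0.355 for Col1a1, 0.30 for Col1a2 and 0.00 for Igf2, and without saline replicate 15 that of Igf2 was 0.19.

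At day 35 the order was the other way for 5 of the 6 genes, with lower means in meth than in saline rats, and again no member passed. edgeR called 0 of 6 members and 0% of all genes, and DESeq2 called 8 genes and 0 members, with an adjusted p for Fn1 only. Of the members 4 had an unadjusted edgeR p under 0.05, where 5.85% of all genes did, and their median log2 fold change was -0.63 against 0.00 over all genes. Dcn stood at 4.10, 5.29, 4.72 and 4.74 CPM in meth libraries, against 10.1, 7.09, 5.69 and 7.58 CPM in saline libraries. All 4 meth libraries lay below the saline ones (log2 fold change -0.71, SE 0.190, edgeR adjusted p = 0.542). Col1a2 also lay apart, at 4.77 to 5.57 CPM in meth and 5.88 to 11.2 CPM in saline libraries (log2 fold change -0.57, SE 0.255, edgeR adjusted p = 0.834), where 3.46% of all genes lay apart in either direction. Col1a1 and Col3a1 overlapped through saline replicate 12 and had log2 fold changes of -0.67 (SE 0.260) and -0.76 (SE 0.262). Igf2 averaged 6.18 ± 0.457 CPM in meth and 9.06 ± 4.12 CPM in saline libraries, which overlapped (log2 fold change -0.58, SE 0.313, edgeR adjusted p = 0.884). Without saline replicate 9 the log2 fold changes were -0.40 for Col1a1, -0.31 for Col1a2 and -0.185 for Igf2. Fn1 averaged 59.5 ± 12.0 CPM in meth and 58.7 ± 4.53 CPM in saline libraries (log2 fold change 0.02, SE 0.151), and its sign turned without meth replicate 6 (-0.114) or saline replicate 9 (-0.007) or 10 (-0.013).

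An interaction term tested whether meth acted differently at the 2 days. The meth effect at day 35 minus that at day 2 was negative for all 6 members, from -0.49 (SE 0.217) for Fn1 to -1.44 (SE 0.370) for Col3a1 on the log2 scale, and edgeR called none of them, where it called 0.136% of all genes. Dcn came nearest (-1.33, SE 0.274, edgeR adjusted p = 0.102), followed by Col3a1 (adjusted p = 0.212), Col1a1 (0.278) and Col1a2 (0.297). Of the 6 members 5 had an unadjusted edgeR p under 0.05, where 9.62% of all genes did. DESeq2 called 4 of them, Dcn (DESeq2 adjusted p = 0.000894), Col3a1 (0.00873), Col1a1 (0.043) and Col1a2 (0.0437), all with a negative difference, where it called 0.381% of the genes it gave an adjusted p in that direction. These calls depend on the tool. Igf2 had a difference of -0.91 (SE 0.446, edgeR adjusted p = 0.546), which was -0.58 without day 2 meth replicate 4 and -0.52 without day 35 saline replicate 9. edgeR called Dcn without day 2 meth replicate 1 (adjusted p = 0.0474) or day 2 saline replicate 16 (0.0371). The comparisons share libraries, since each group enters 3 of the 5, and their fold changes for a gene are therefore not separate evidence.

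**Figure D2:**
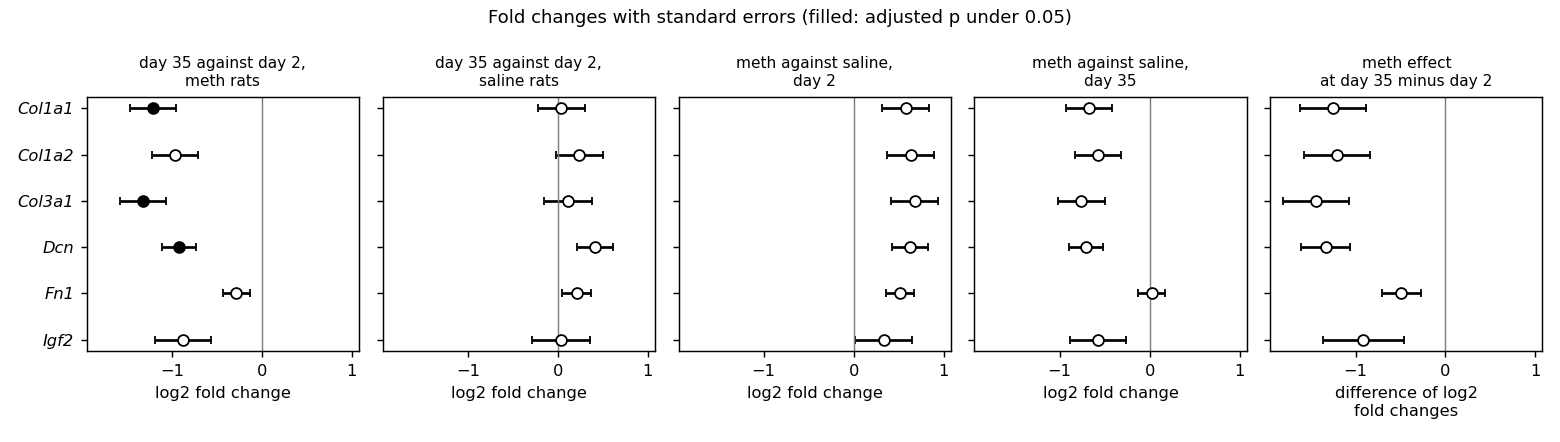
Log2 fold change ± SE (horizontal axes) of each gene (rows) in 5 comparisons (panels), from the edgeR fit of all 16 libraries. The right panel gives the difference between the 2 meth effects. Filled points have an adjusted p under 0.05, and these are Col1a1, Col3a1 and Dcn in the panel on meth rats and no other point.

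The members varied more between pools of the same group than most genes. The SD of log2 CPM around the group means (12 residual degrees of freedom) was 0.43 for Igf2, 0.39 for Col3a1, 0.37 for Col1a1, 0.35 for Col1a2, 0.30 for Dcn and 0.22 for Fn1, against a median of 0.10 over all genes tested. Igf2 lay at percentile 94.3 of all genes and Fn1 at percentile 78.6. The biological coefficient of variation, from which counting error is removed, was 29.3% for Igf2 and 14.8% for Fn1, against a common value of 6.25%. The spread was not alike in the 4 groups. The edgeR fit gave each gene a spread shared by all 4 groups, so its SEs and adjusted p do not reflect this difference. For Col1a2 the coefficient of variation of the levels was 7.06% in day 35 meth, 32.1% in day 35 saline, 41.4% in day 2 meth and 10.0% in day 2 saline libraries, and for Igf2 it was 7.39%, 45.4%, 41.1% and 21.3% in the same order.

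**Figure D3:**
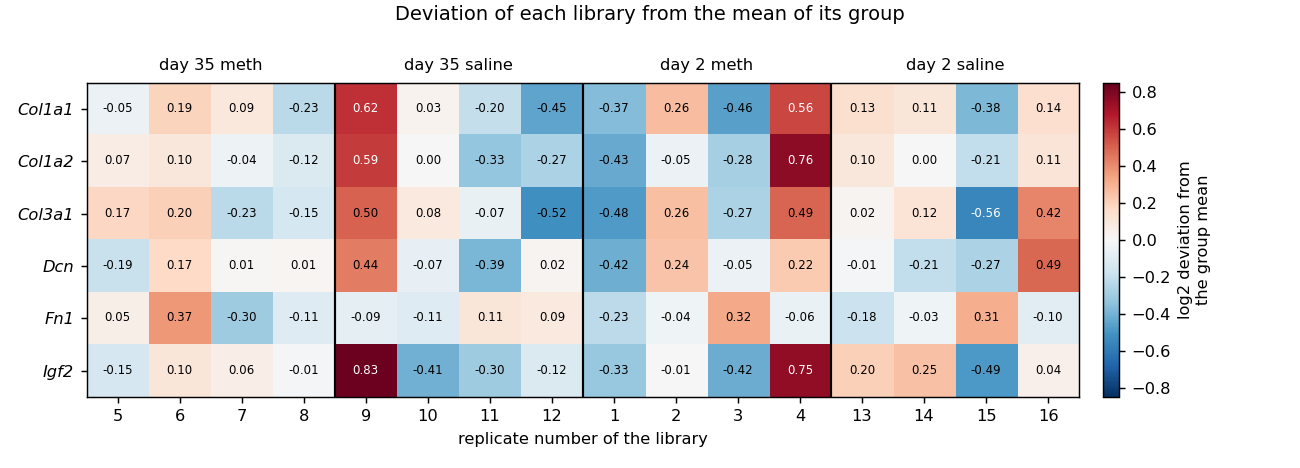
Deviation of each library (columns, replicate numbers, in 4 blocks by group) from the mean of its group for each gene (rows), in log2 units by colour and number. Day 35 saline replicate 9 and day 2 meth replicate 4 are above their group means for all genes but Fn1, by up to 0.83 and 0.76, and the day 35 meth libraries deviate by at most 0.23 for all genes but Fn1.

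All pairs of the 5 genes other than Fn1 varied together over the 16 libraries. Pearson's r of log2 CPM was 0.728 to 0.956 and Spearman's rho 0.753 to 0.944 over these 10 pairs, and all 10 passed a two-sided permutation test (adjusted p 3.75e-05 to 0.00172, adjusted over 15 pairs). The highest was Col1a1 with Col3a1 (r = 0.956, rho = 0.903; permutation p = 1e-05, the smallest that 100000 permutations can give, and p = 2e-05 for rho). Without the 2 libraries farthest from the median of the first gene of a pair, r was 0.631 to 0.947 and all 10 still passed. Day 2 meth replicate 4 was left out in each of these pairs. Day 35 saline replicate 9 was left out only where Col1a2 was the first gene. Deviations from the group means, which hold no difference between groups, gave r of 0.642 to 0.902, and 9 of the 10 pairs passed with permutation within groups; Dcn with Igf2 did not (r = 0.642, adjusted p = 0.0556). With lane also removed, r was 0.595 to 0.925. The r of deviations was not computed without both replicates 4 and 9.

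Fibronectin stood outside this pattern. The 5 pairs with Fn1 had r of -0.017 to 0.322 and rho of 0.05 to 0.341, and none passed (adjusted permutation p 0.306 to 0.95 for r). On deviations from the group means their r was -0.332 to -0.108, and none passed. In the 3 libraries highest for the other 5 genes, Fn1 stood at 55.2 CPM (day 35 saline replicate 9), 69.8 CPM (day 2 meth replicate 2) and 68.8 CPM (day 2 meth replicate 4), each within the range of the other libraries of its group. Its highest level, 89.7 CPM, was in day 2 meth replicate 3, which had the lowest Col1a1 and Igf2 of its group. Other libraries went the other way. Day 2 meth replicate 1 was the lowest of its group for Fn1 (61.3 CPM) and also for Col1a2, Col3a1 and Dcn. Day 35 meth replicate 6 was the highest of its group for every member.

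**Figure D4:**
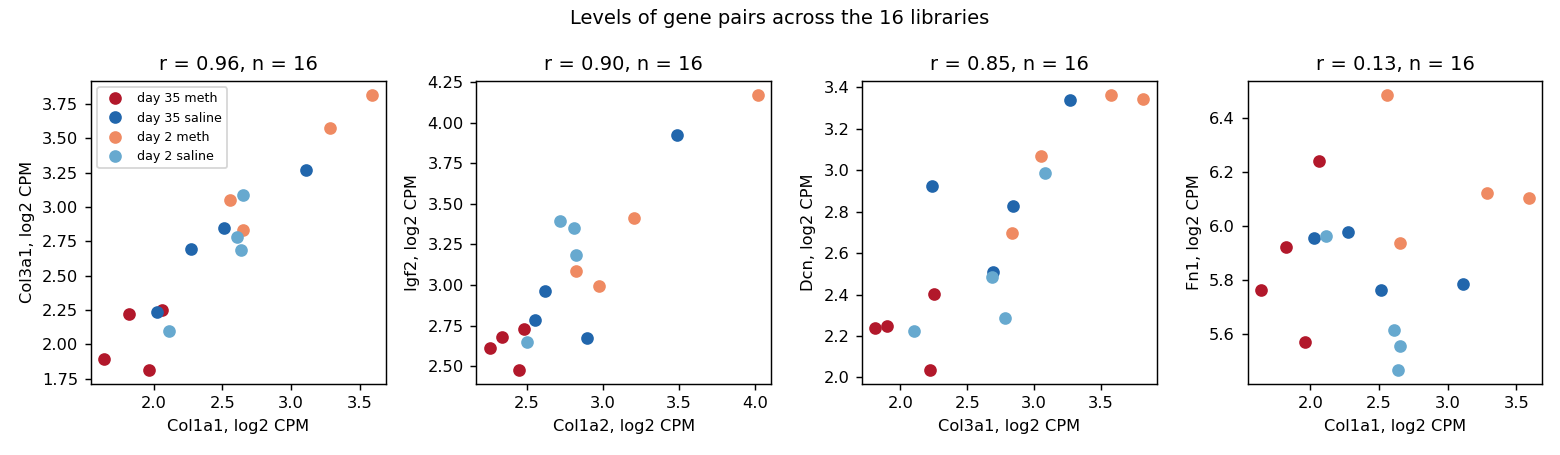
Log2 CPM of gene pairs across the 16 libraries, coloured by group. Col1a1 with Col3a1 (r = 0.956), Col1a2 with Igf2 (r = 0.898) and Col3a1 with Dcn (r = 0.848) lie along a line, and Col1a1 with Fn1 (r = 0.128) do not.

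Set against all genes at a mean of at least 1 CPM, the collagens were among those closest to the rest of the set. The deviations of Col1a2 from the group means correlated with the mean standardized deviation of the other 5 members by r = 0.889, and 1 of 13555 genes outside the set had a higher r with that same mean. For Col1a1 (r = 0.856), Col3a1 (0.836), Igf2 (0.778) and Dcn (0.710) there were 5, 11, 34 and 102 such genes, and for Fn1 (r = -0.248) there were 10008. These values describe 16 libraries that share their groups, and no test was attached.

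Of genes outside the set, ENSRNOG00000011184 and ENSRNOG00000012991 had deviations that correlated highest with the mean standardized deviation of the 6 members. Their r over 16 libraries was 0.923 and 0.895. The files give neither a name. Both were picked as the highest of 13555 genes. Fn1 is part of that mean but did not vary with the other 5 members. ENSRNOG00000011184 averaged 3.81 ± 0.335 CPM in day 35 meth, 5.44 ± 2.15 CPM in day 35 saline, 5.76 ± 1.83 CPM in day 2 meth and 4.91 ± 0.624 CPM in day 2 saline libraries (SD, n = 4 each), and was not called between day 35 and day 2 in meth rats (log2 fold change -0.61, SE 0.247, edgeR adjusted p = 0.236). ENSRNOG00000012991 was lower there, at 19.4 ± 0.983 CPM in day 35 meth and 23.5 ± 2.55 CPM in day 2 meth libraries (log2 fold change -0.28, SE 0.066, edgeR adjusted p = 0.0354). Neither was called in the other 4 comparisons (edgeR adjusted p 0.367 to 0.967).

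Ordered by group mean, all 6 genes were highest in day 2 meth and 5 were lowest in day 35 meth, with both saline groups between. For Col1a1 the means were 3.68 ± 0.457 CPM in day 35 meth, 5.81 ± 1.99 CPM in day 35 saline, 8.49 ± 2.93 CPM in day 2 meth and 5.73 ± 0.938 CPM in day 2 saline libraries. The neighbouring groups overlapped except day 35 meth and day 2 saline, whose nearest libraries had 4.17 and 4.33 CPM, and 3.56% of all genes lay apart in that pair of groups with day 35 meth lower. Col1a2 had the same order with the same neighbours apart, at 5.21 ± 0.368 CPM in day 35 meth, 7.67 ± 2.46 CPM in day 35 saline, 10.1 ± 4.18 CPM in day 2 meth and 6.58 ± 0.660 CPM in day 2 saline libraries. Col3a1 averaged 4.17 ± 0.641 CPM in day 35 meth, 7.00 ± 2.04 CPM in day 35 saline, 10.4 ± 3.22 CPM in day 2 meth and 6.52 ± 1.73 CPM in day 2 saline libraries. For Col3a1, Dcn and Igf2 all neighbouring groups in the order overlapped. Fn1 had its lowest mean in day 2 saline libraries, at 50.7 ± 8.05 CPM, and every neighbouring group in its order overlapped.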

How the data were processed

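Libraries of poly(A) RNA were made with the TruSeq RNA v2 kit and read on a HiSeq, per the labels' protocols. The submitters' processing notes name TopHat, HTSeq, limma and the build rn4. Not given in the sources used here are tool versions, annotation and strand setting. The authors deposited raw counts for each Ensembl gene. The 5 summary rows of each file (31.13 to 32.61% of reads) were left out; reads with several alignments (9.17 to 10.29%) were among them. The labels call the time points short and long; days come from the design text.

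Computed here: edgeR's filterByExpr, TMM (factors 0.985 to 1.018), 1 quasi-likelihood fit of 4 group means over 16 libraries (edgeR 4.0.16, R 4.3.3, robust), Benjamini-Hochberg adjustment over 15413 genes, called at 0.05. SEs are fold change (log2) over the root of F. Correlations used log2 CPM with a prior count of 2 and 100000 permutations (scipy 1.17.1). No files of 2 libraries of a group agreed within sampling noise (chi-square at least 5.19 times its degrees of freedom over 24 pairs). Lane is given in the labels and crosses the groups, so it pairs libraries; deviations of same-lane libraries correlated by 0.026 on average (24 pairs, -0.272 to 0.24). The alternatives tried were size factors by median ratio, no filter, DESeq2 1.42.0, lane as a block and leaving out each library; leaving out libraries 4 and 9 together was added after seeing the data. The fit was also run on simulated counts, with each gene drawn separately and with the same spread in every group. The members differ from that in both ways, so this run does not test their calls. Members and lists were chosen with earlier results of these data known. The rule for named genes took all 6 members and the 2 genes that correlated highest with their mean deviation. The 14 lists of 155 marker and pathway genes, by symbol, could not be run, since 0 rows of the gene table carry an Ensembl identifier.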

Additional observations from a re-analysis of the deposited data

Results flagged for a closer look

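In 2 of 24 sets of 4 libraries (6 genes in 4 groups), 1 library lay far from the other 3, where chance gives about 1 in 20. Day 35 saline replicate 9 had 15.2 CPM of Igf2, against 6.39 to 7.81 CPM in the other 3 libraries of its group. Day 2 saline replicate 15 had 4.33 CPM of Col1a1, against 6.11 to 6.27 CPM in the other 3.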

How the results depend on the processing

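The 3 calls in meth rats were also made with median-ratio size factors, without a filter, with lane as a replicate block and with DESeq2, and the block changed no call of a member. With 1 library left out, 0 to 4 members were called in meth rats and 0 to 1 for the difference of meth effects, where DESeq2 called 4. Fewer samples enter those fits.

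Counts of all genes called were 73, 8, 560, 38 and 75 with DESeq2 (meth against saline at day 2 and day 35, day 35 against day 2 in meth and saline rats, and the difference of effects), against 17, 0, 282, 0 and 21 with edgeR. The difference gave 8 genes with median-ratio size factors and 4 with the block. With 1 library left out the counts were 6 to 21, 0 to 1, 104 to 305, 0 to 2 and 0 to 17. Without both day 2 meth replicate 4 and day 35 saline replicate 9 they were 11, 0, 117, 1 and 0. The cause was not tested.

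Of 630 fold changes of members recomputed, 615 kept their direction, 16 lost a call and 10 gained one. Fn1 between meth and saline at day 35 was -0.114 to 0.117 with 1 library left out and -0.008 without those 2 libraries. Day 35 against day 2 in saline rats was -0.234 to 0.179 for Col1a1, -0.019 to 0.347 for Col1a2, -0.093 to 0.27 for Col3a1 and -0.357 to 0.167 for Igf2 with 1 library left out, and -0.236, -0.021, -0.095 and -0.359 without both libraries. For Fn1 with Col1a1, Col1a2, Col3a1 and Dcn, r was -0.332, -0.19, -0.169 and -0.108 on deviations from group means, and -0.266, -0.034, -0.058 and -0.002 with lane removed too. Without the 2 farthest libraries it was -0.041 for Fn1 with Col1a1 and 0.091 for Fn1 with Igf2, and for Fn1 with Igf2 it ranged from -0.187 to 0.052 with 1 library left out. All 24 group means moved by less than 1 SD with median-ratio size factors. For members at these counts DESeq2 gave no adjusted p in 3 comparisons, except for Fn1.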
